A study of Mus musculus with 10 samples.

Results

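Fatty acid desaturases and elongases are the enzymes that put double bonds into fatty acids and make their chains longer. The 9 genes described here were taken by symbol: Scd1 and Scd2, which encode stearoyl-CoA desaturases, Fads1 and Fads2, which encode front-end desaturases, and Elovl1, Elovl2, Elovl3, Elovl5 and Elovl6, which encode the enzymes that open each round of chain elongation. They are 9 of the 43629 genes in the count table, and 9 of 9 were among the 14143 genes with enough counts to be tested. RNA-seq was run on whole livers of 10 male mice, and each library is 1 liver of 1 mouse.

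All mice were adult males of one genetically engineered lung tumour model on an FVB background, with Lkb1 flox/flox among its alleles, in which tumours had been started in the lung with an adenovirus, given through the nose, that expressed Cre from the CMV promoter. The 5 livers of the CACS group came from mice with the cancer anorexia-cachexia syndrome, which is loss of appetite and of body weight in the presence of a tumour, and the labels give them weight losses of 29 to 33%. The 5 livers of the NCACS group came from tumour-bearing mice without the syndrome, with weight losses of 3 to 14%. Both groups therefore carried the same alleles, virus and tumour type, and no tumour-free liver was analysed here. The hour of collection, the last meal and any batch are not in the labels. The comparison asks how liver transcripts differ between tumour-bearing mice with and without the wasting syndrome. The libraries held 31459179 to 40746178 counts, and the least abundant values among the 9 genes were 99 counts for Elovl3 and 141 for Scd2 in single livers. Values are normalized counts per 1e6 (CPM), scaled for library composition.

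The products of these enzymes fall into separate arms. Elovl6 lengthens palmitate to stearate, and Scd1 converts palmitate and stearate to the monounsaturated palmitoleate and oleate, the main fatty acids of newly made triglyceride. Fads2, Elovl5, Fads1 and Elovl2 act in turn on the essential fatty acids of the diet to make arachidonate, eicosapentaenoate and docosahexaenoate. In liver, genes of both arms are textbook targets of the transcription factor SREBP and respond to insulin, feeding and dietary fat.

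Scd1 and Elovl5 transcripts were lower in CACS livers, and the other 7 genes did not pass the test. Scd1 fell to 28.5% of its NCACS mean and Elovl5 to 42.6%. Those 2 of 9 genes stand beside a background in which edgeR's quasi-likelihood test called 538 of 14143 genes at an adjusted p under 0.05 (3.8%), of which 271 were lower in CACS livers (1.92%) and 267 higher. None of the 9 genes was called higher. The normalized CPM of 3 genes, Scd1, Elovl3 and Elovl5, did not overlap between the groups and were lower in CACS livers, which held for 442 of the genes tested (3.13%). All 9 estimates of the log2 fold change were below 0, with a median of -0.23, while the median of all genes tested was -0.01 and 50.6% of them were below 0. The signs of Scd2 and Elovl2 turned in some fits with 1 liver left out. In whole liver, fewer cells of a type and less RNA per cell cannot be told apart.

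**Figure D1:**
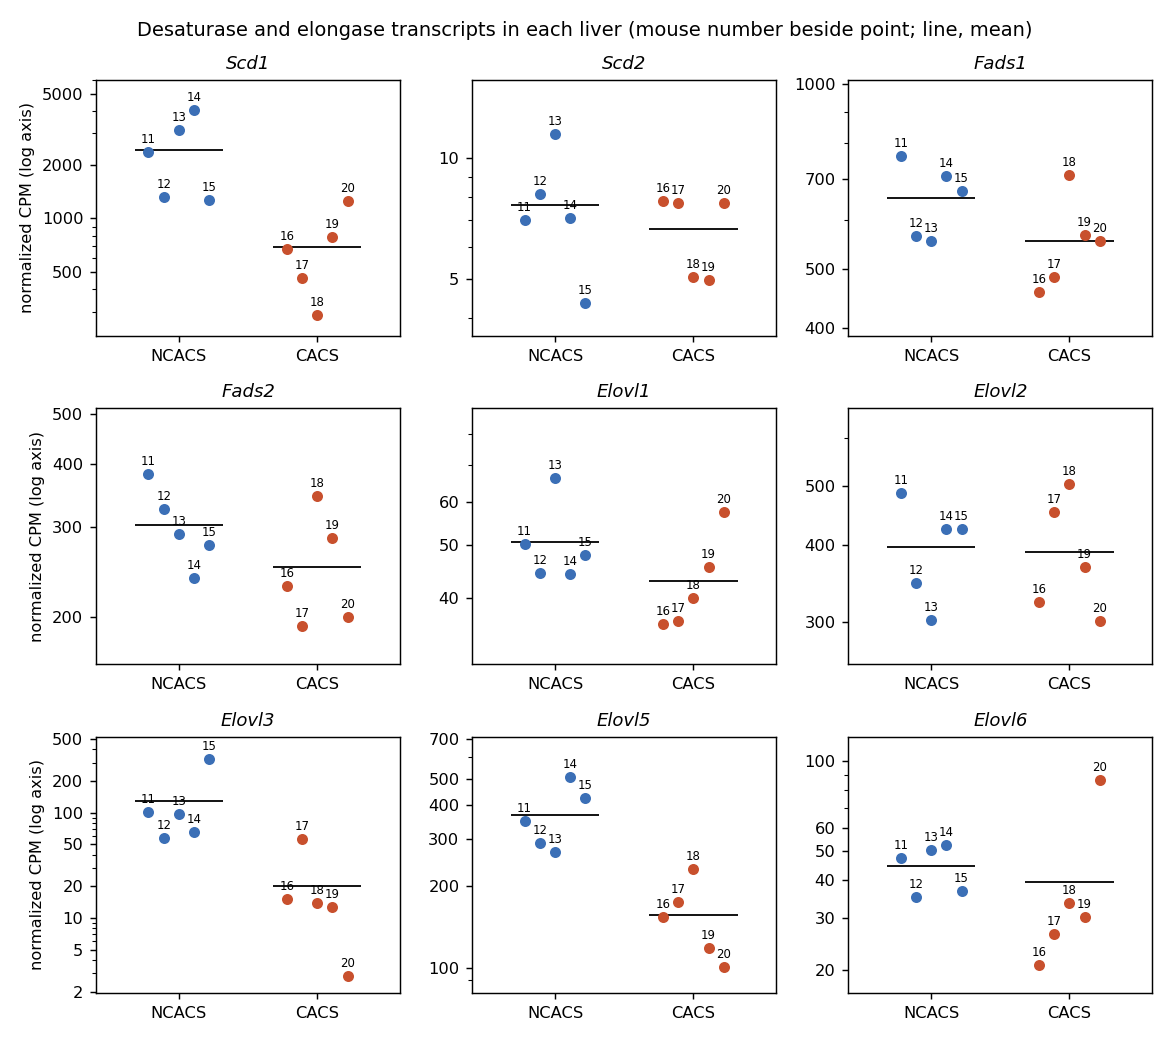
Normalized CPM (log axis, a separate scale for each gene) of the 9 genes in each liver of NCACS (blue) and CACS mice (red), with the mouse number beside each point and a line at the group mean. Scd1, Elovl3 and Elovl5 did not overlap between the groups, and Elovl6 in CACS mouse 20 stood at 86.6, above the other livers of either group.

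Scd1 (ENSMUSG00000037071, GRCm38 chr19:44394455-44407879, minus strand) encodes the main liver enzyme that makes oleate and palmitoleate. It was measured at 2361, 1318, 3118, 4045 and 1267 CPM in NCACS mice 11 to 15, and at 669.9, 463.2, 287.5, 782.5 and 1247 CPM in CACS mice 16 to 20. The 2 groups did not overlap, but the highest CACS liver, of mouse 20, lay close under the lowest NCACS liver, of mouse 15. The NCACS mean was 2422 ± 1191 CPM (SD, n = 5) and the CACS mean 690.0 ± 365 CPM (SD, n = 5), a log2 fold change of -1.81 (SE 0.42, 95% interval -2.73 to -0.89, adjusted p = 0.0388, edgeR's quasi-likelihood test). Of all counts in a library, Scd1 took 0.241% ± 0.120 (SD, n = 5) in the NCACS group, against 0.0690% ± 0.0355 (SD, n = 5) in the CACS group. When each liver was dropped in turn, its log2 fold change ran from -2.14 to -1.55, and its adjusted p stayed under the threshold in 3 of 10 fits (range 0.0392 to 0.0817, edgeR's quasi-likelihood test).

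Scd2 (ENSMUSG00000025203, chr19:44293674-44306864, plus strand) lies 87.6 kb from Scd1 and encodes the form known for its role in skin and brain. Its level in liver was low, 4.4 to 11.5 CPM in NCACS livers and 5.0 to 7.8 CPM in CACS livers. The groups overlapped through their whole CACS range, and the log2 fold change was -0.19 (SE 0.24, 95% interval -0.71 to 0.33, adjusted p = 0.692, edgeR's quasi-likelihood test). The ratio of Scd1 to Scd2 counts was 161.4 to 569.2 in NCACS livers (median 291) and 56.9 to 160.7 in CACS livers (median 85.4). Scd1 alone already separated the groups, so this ratio is not separate evidence of its lower level. The difference of the log2 ratio was -1.68, lower in 5 of 5 CACS livers than in any NCACS liver, with p = 0.00794 in a two-sided exact permutation test over all assignments of the livers, the smallest that this test can give, and 0.0106 after Benjamini-Hochberg adjustment over 4 ratios. The transcripts share few stretches as long as a read, 48 of the 4888 that Scd1 holds.

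Elovl6 (ENSMUSG00000041220, chr3:129532355-129638495, plus strand) supplies the stearate that Scd1 desaturates. It was measured at 47.4, 35.1, 50.5, 52.6 and 37.0 CPM in NCACS mice 11 to 15, and at 20.8, 26.5, 33.5, 30.1 and 86.6 CPM in CACS mice 16 to 20. The livers of 4 CACS mice lay under the lowest NCACS liver, and that of mouse 20 lay above the highest. The log2 fold change over all livers was -0.17 (SE 0.34, 95% interval -0.90 to 0.56, adjusted p = 0.811, edgeR's quasi-likelihood test), and without CACS mouse 20 it was -0.68 (adjusted p = 0.0701). The weight loss of mouse 20 was 29%, within the range of its group.

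The ratio of Scd1 to Elovl6 counts was 34.3 to 76.9 in NCACS livers (median 49.8) and 8.57 to 32.3 in CACS livers (median 17.5). Every CACS liver, that of mouse 20 included, lay under every NCACS liver in this ratio. The same held for Scd1 alone, so the ratio is not separate evidence. The difference on the log2 scale was -1.48 (two-sided exact permutation p = 0.00794, adjusted over the 4 ratios 0.0106), and it ran from -1.69 to -1.21 with 1 liver left out.

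Elovl3 (ENSMUSG00000038754, chr19:46131897-46135694, plus strand) encodes an elongase of saturated and monounsaturated fatty acids, known from brown fat and skin and, in liver, for a strong daily rhythm and higher expression in males. It was measured at 101.9, 57.8, 96.9, 65.0 and 321.2 CPM in NCACS mice 11 to 15, and at 15.04, 56.5, 14, 12.8 and 2.83 CPM in CACS mice 16 to 20. The groups were separated only narrowly, by CACS mouse 17 beside NCACS mouse 12, while the other 4 CACS livers were far lower. Elovl3 had the largest estimate of the 9 genes, a log2 fold change of -2.67 (SE 0.71, 95% interval -4.21 to -1.12), and missed the threshold with adjusted p = 0.0580 in edgeR's quasi-likelihood test.

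Elovl3 was also the most variable of the 9 genes within each group, with the highest liver 5.56 times the lowest in NCACS and 19.9 times in CACS livers. It was called lower by DESeq2 (adjusted p = 0.00948), by limma-voom (adjusted p = 0.0398) and by edgeR without a filter on low counts (adjusted p = 0.0491). Those tests called 4.62% of 15602, 1.92% of 14143 and 0.885% of 24746 genes lower. Elovl3 was not called by robust edgeR (adjusted p = 0.0930) or by edgeR on raw library totals (adjusted p = 0.0662). The remaining scalings and the remaining filter did not call it either. Without CACS mouse 17 the log2 fold change was -3.52 (edgeR adjusted p = 0.0208), and without NCACS mouse 15, the highest liver, it was -1.99 (edgeR adjusted p = 0.111). In that same liver the clock genes, looked at by name after the values were seen, stood apart: Arntl, a driver of the clock, was at 33.8 CPM against 0.958 to 8.13 in the other 9 livers, and Dbp, an output gene of the opposite phase, was at 1.27 CPM against 18.8 to 82.9. Of the 16 clock and rhythm genes listed, 16 were tested and 0 were called between the groups by edgeR's quasi-likelihood test, with 8 estimates below 0 and a median log2 fold change of 0.02. Their estimates were spread widely, from -3.22 to 1.23, so the median does not describe the single clock genes. The part of the clock genes in the Elovl3 result was not tested.

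Elovl1 (ENSMUSG00000006390, chr4:118428093-118432953, plus strand) lengthens saturated and monounsaturated fatty acids to the very long chains of sphingolipids. Its level was 44.3 to 66.4 CPM in NCACS livers and 36.0 to 57.5 CPM in CACS livers. The ranges overlapped, and the log2 fold change was -0.23 (SE 0.15, 95% interval -0.57 to 0.10, adjusted p = 0.403, edgeR's quasi-likelihood test). CACS mouse 20 again had the highest value of its group.

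Elovl5 (ENSMUSG00000032349, chr9:77917364-77984519, plus strand) lengthens the polyunsaturated products of Fads2. It was measured at 347.5, 288.7, 267.5, 506.8 and 424.7 CPM in NCACS mice 11 to 15, and at 154.6, 175.4, 232.9, 118.8 and 100.9 CPM in CACS mice 16 to 20. The groups did not overlap, and CACS mouse 20, the highest of its group for Scd1 and Elovl6, was the lowest of all livers for Elovl5. The means were 367.0 ± 99.1 CPM (SD, n = 5) and 156.5 ± 51.7 CPM (SD, n = 5), a log2 fold change of -1.23 (SE 0.24, 95% interval -1.76 to -0.70, adjusted p = 0.0243, edgeR's quasi-likelihood test). With 1 liver left out in turn it ran from -1.42 to -1.09, and the adjusted p stayed under the threshold in 6 of 10 fits (range 0.0189 to 0.0583).

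Promoter windows of 300 bases from RefSeq (GRCm38.p6, 250 bases before the start site and 50 from it onward) were given for 5 of the 9 genes: Elovl1, Elovl2, Elovl5, Elovl6 and Fads2. No entry was found for Scd1, Scd2, Fads1 or Elovl3. The window of Elovl5, the called gene, is shown with those of Elovl6, an elongase of the other arm, and Fads2, which acts before Elovl5. Neither Elovl6 nor Fads2 was called. Capitals mark matches on either strand to CACGTG (an E-box), CCAAT (on the reverse strand ATTGG) and TGACGTCA (a cyclic AMP response element).
Elovl5, chr9:77917115-77917414, plus strand: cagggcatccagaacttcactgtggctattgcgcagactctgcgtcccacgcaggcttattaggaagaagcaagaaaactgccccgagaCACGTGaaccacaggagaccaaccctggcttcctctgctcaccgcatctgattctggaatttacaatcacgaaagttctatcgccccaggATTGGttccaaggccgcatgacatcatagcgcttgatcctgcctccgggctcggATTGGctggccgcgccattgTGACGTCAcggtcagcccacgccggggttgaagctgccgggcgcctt
Elovl6, chr3:129532136-129532435, plus strand: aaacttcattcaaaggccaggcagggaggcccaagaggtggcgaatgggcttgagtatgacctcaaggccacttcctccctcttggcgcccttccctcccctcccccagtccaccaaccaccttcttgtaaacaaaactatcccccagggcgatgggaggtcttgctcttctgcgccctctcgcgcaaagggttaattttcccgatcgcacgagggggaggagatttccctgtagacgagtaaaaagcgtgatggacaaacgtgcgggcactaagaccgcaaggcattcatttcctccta
Fads2, chr19:10101454-10101753, minus strand: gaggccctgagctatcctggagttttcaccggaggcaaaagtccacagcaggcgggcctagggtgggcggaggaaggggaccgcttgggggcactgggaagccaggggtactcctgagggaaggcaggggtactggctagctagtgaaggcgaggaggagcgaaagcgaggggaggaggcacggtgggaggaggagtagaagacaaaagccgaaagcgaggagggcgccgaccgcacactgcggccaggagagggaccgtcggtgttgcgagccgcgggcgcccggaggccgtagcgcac
Counted from the start site as 0, the Elovl5 window held the E-box at -161 to -156, reverse CCAAT boxes at -71 to -67 and -17 to -13, and TGACGTCA at 3 to 10. None of 5 motifs searched, these 3 with TCACNCCAC (a form of the sterol regulatory element) and TTCNNNGAA (a STAT-like element), was found in the windows of Elovl6, Fads2 or Elovl2, and 1 window of Elovl1 held 1 CCAAT. Of 32851 mouse promoter windows, 7.15% held CACGTG, 37.4% CCAAT, 1.79% TGACGTCA, 1.24% TCACNCCAC and 8.3% TTCNNNGAA. TGACGTCA was added to the search after the Elovl5 window had been read. The STAT-like element was searched only with 3 free bases in its middle. For fly genes, the paper also marks forms with fewer or more free bases as STAT-binding motifs. Those forms were not searched or counted in the background, so their absence from the windows is not shown. The Elovl5 window as printed holds the shorter form, not in capitals, between the E-box and the first reverse CCAAT box. The matches describe letters in these windows, and binding was not measured. The RefSeq start site of Fads2, 10101503, differs from the gene's end in the annotation used for the counts, 10101746.

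The other genes of the polyunsaturated arm were not called. Elovl2 (ENSMUSG00000021364, chr13:41182381-41220405, minus strand), which acts after Elovl5 on the longest polyunsaturated chains, was measured at 301.3 to 487.5 CPM in NCACS livers and 301.1 to 503.4 CPM in CACS livers. Its log2 fold change was -0.03 (SE 0.17, 95% interval -0.41 to 0.35, adjusted p = 0.950, edgeR's quasi-likelihood test). The ratio of Elovl5 to Elovl2 counts was 0.713 to 1.19 in NCACS livers (median 0.888) and 0.323 to 0.477 in CACS livers (median 0.386). It was lower in 5 of 5 CACS livers than in any NCACS liver, by 1.22 on the log2 scale in the mean, with a two-sided exact permutation p of 0.00794 (adjusted over the 4 ratios 0.0106). Elovl5 alone also separated the groups, so this ratio is not separate evidence.

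Fads1 and Fads2 encode the desaturases that bracket the Elovl5 step, and they lie 81.1 kb apart on chromosome 19 (Fads1, ENSMUSG00000010663, chr19:10182888-10196877, plus strand, and Fads2, ENSMUSG00000024665, chr19:10062765-10101746, minus strand). Fads1 was measured at 554.2 to 761.5 CPM in NCACS livers and 458.3 to 710.3 CPM in CACS livers, with a log2 fold change of -0.23 (SE 0.15, 95% interval -0.55 to 0.09, adjusted p = 0.386, edgeR's quasi-likelihood test). Fads2 was measured at 238.9 to 381.9 CPM and 192.5 to 345.6 CPM, with a log2 fold change of -0.27 (SE 0.18, 95% interval -0.67 to 0.12, adjusted p = 0.409). The groups overlapped for both genes, and CACS mouse 18 was the highest of its group for both. The ratio of Fads1 to Fads2 counts was 1.73 to 2.97 in NCACS livers (median 1.99) and 1.99 to 2.77 in CACS livers (median 2.06), a difference of 0.05 on the log2 scale (two-sided exact permutation p = 0.722, adjusted 0.722). Fads1 varied least of the 9 genes in NCACS livers, where its highest liver was 1.37 times its lowest.

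**Figure D2:**
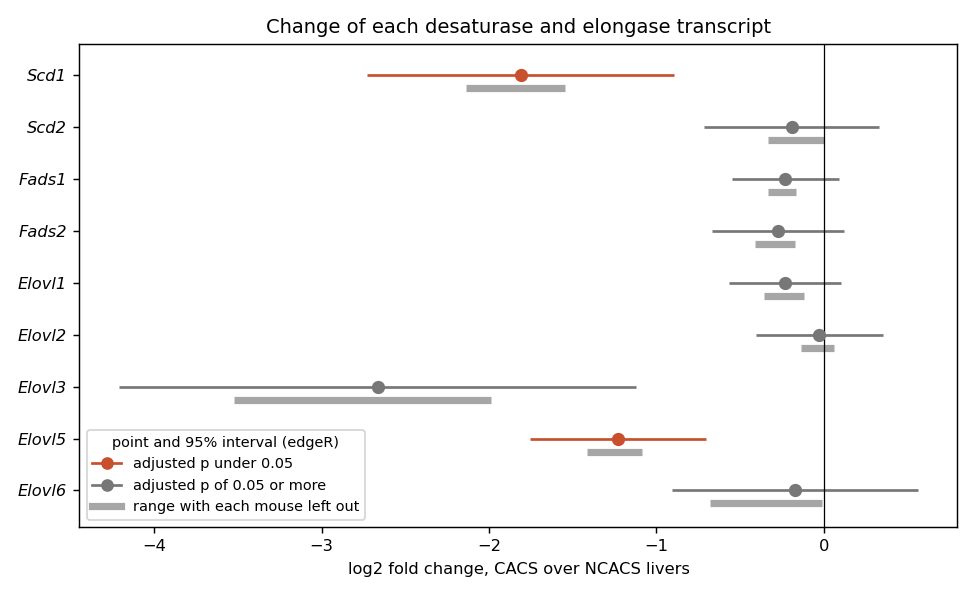
Log2 fold change, CACS over NCACS livers (x axis), of the 9 genes with 95% intervals from edgeR's quasi-likelihood fit (red, adjusted p under 0.05) and, under each, a bar for the range with each mouse left out. Scd1 at -1.81 and Elovl5 at -1.23 passed, Elovl3 at -2.67 had the widest interval, and Elovl2 at -0.03 lay nearest 0.

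Per length, the liver pool of these transcripts was led by Scd1. In CPM per kilobase of merged exons, the NCACS means ran in the order Scd1 at 495.0 ± 243.5 (SD, n = 5), Fads1 at 135.4 ± 18.8, Elovl5 at 104.2 ± 28.1, Elovl2 at 100.2 ± 18.4, Fads2 at 92.0 ± 16.4, Elovl3 at 65.1 ± 55.4, Elovl1 at 18.6 ± 3.35, Elovl6 at 6.92 ± 1.24 and Scd2 at 1.40 ± 0.473. Neighbours in this order from Fads1 to Elovl1 differed by less than the sum of their SDs, while Scd1 at the top and Elovl6 and Scd2 at the bottom differed by more. In CACS livers the order was Scd1 at 141.1 ± 74.6, Fads1 at 115.4 ± 20.4, Elovl2 at 98.4 ± 21.7, Fads2 at 76.2 ± 19.5, Elovl5 at 44.4 ± 14.7, Elovl1 at 15.8 ± 3.28, Elovl3 at 10.2 ± 10.6, Elovl6 at 6.14 ± 4.16 and Scd2 at 1.22 ± 0.277. There, only the steps from Elovl5 to Elovl1 and from Elovl6 to Scd2 were larger than the sum of the SDs, and Scd1 no longer stood apart from Fads1. With the length of the longest transcript in place of merged exons, Fads1 was at 160.5 and Scd1 at 142.8 CPM per kilobase in CACS livers, so their order depends on the length used.

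Summed over the 9 genes, the level per length was 1057, 707.8, 1076, 1356 and 896.7 CPM per kilobase in NCACS mice 11 to 15, and 453.2, 465.6, 532.3, 520.1 and 572.8 in CACS mice 16 to 20. The CACS sums lay in a narrow band under all NCACS sums. The Scd1 share of the sum was 46.6% ± 13.7 (SD, n = 5) for NCACS and 27.4% ± 12.5 (SD, n = 5) for CACS mice, while Elovl2 went from 10.2% to 19.5% and Fads1 from 13.7% to 22.6%. Without Scd1 the sums were 523.8 ± 86.8 and 367.7 ± 64.0 CPM per kilobase (SD, n = 5 each). The groups then overlapped, at 438.4 to 637.7 in NCACS and 316.2 to 473.5 in CACS livers, where mouse 18 was the highest. These sums follow from the single genes and were not tested.

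**Figure D3:**
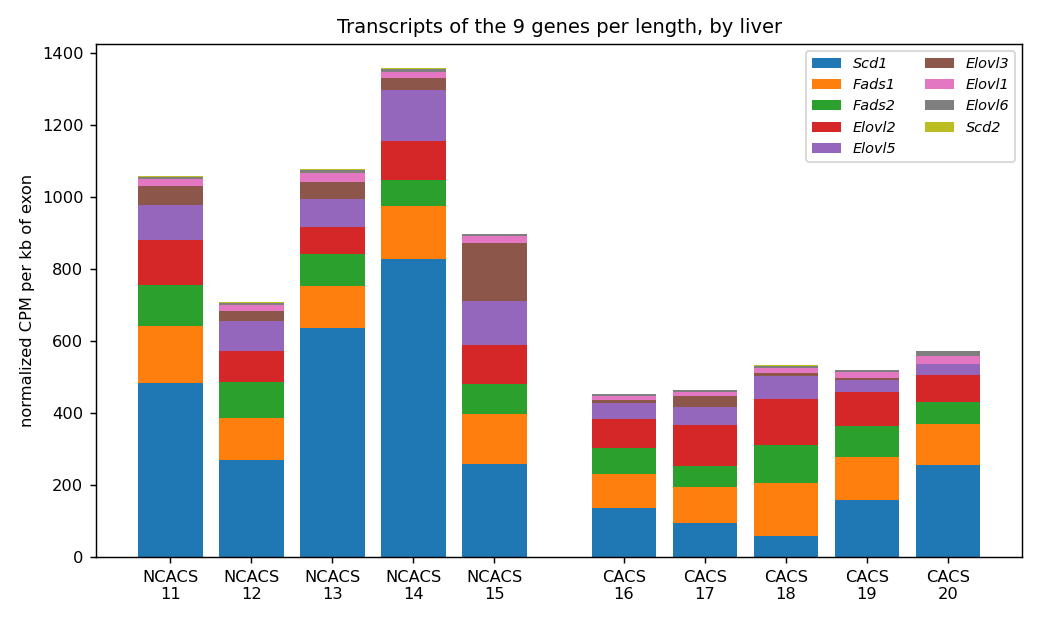
Level per length (CPM per kilobase of merged exons, linear axis from 0) of the 9 genes stacked in each liver, one bar per mouse. The NCACS bars reach 707.8 to 1356 and the CACS bars 453.2 to 572.8, with the largest difference in the Scd1 segment.

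CACS livers were not alike in which genes were low. Against the NCACS mean on the log2 scale, CACS mouse 20 was at -0.81 for Scd1 and 0.98 for Elovl6, but at -1.82 for Elovl5 and -5.16 for Elovl3. CACS mouse 18 showed the other order, with -2.93 for Scd1 and -0.62 for Elovl5, the lowest and the highest values of the group for those genes. Fasn and Acaca were, like Elovl6, highest in mouse 20, while Acly, the cytosolic source of acetyl-CoA from citrate and a gene named after its values were seen, was at 165.1 CPM there, and its highest CACS value was that of mouse 17. Fasn, the fatty acid synthase, was measured at 320.5, 358.0, 393.5, 321.6 and 136.6 CPM in NCACS mice 11 to 15 and at 147.2, 166.5, 145.8, 298.0 and 629.1 CPM in CACS mice 16 to 20. Acaca, which makes the malonyl-CoA used by synthase and elongases, was at 45.9 to 69.3 CPM in NCACS livers and at 40.7 to 61.8 CPM in 4 CACS livers, with 111.1 CPM in mouse 20. Neither gene was called (log2 fold change -0.14, SE 0.42, adjusted p = 0.884 for Fasn and 0.11, SE 0.24, adjusted p = 0.831 for Acaca, edgeR's quasi-likelihood test). Mouse 20 was the highest of the 10 livers in 14.1% of 71 pathway genes tested, beside 13.2% of all genes.

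**Figure D4:**
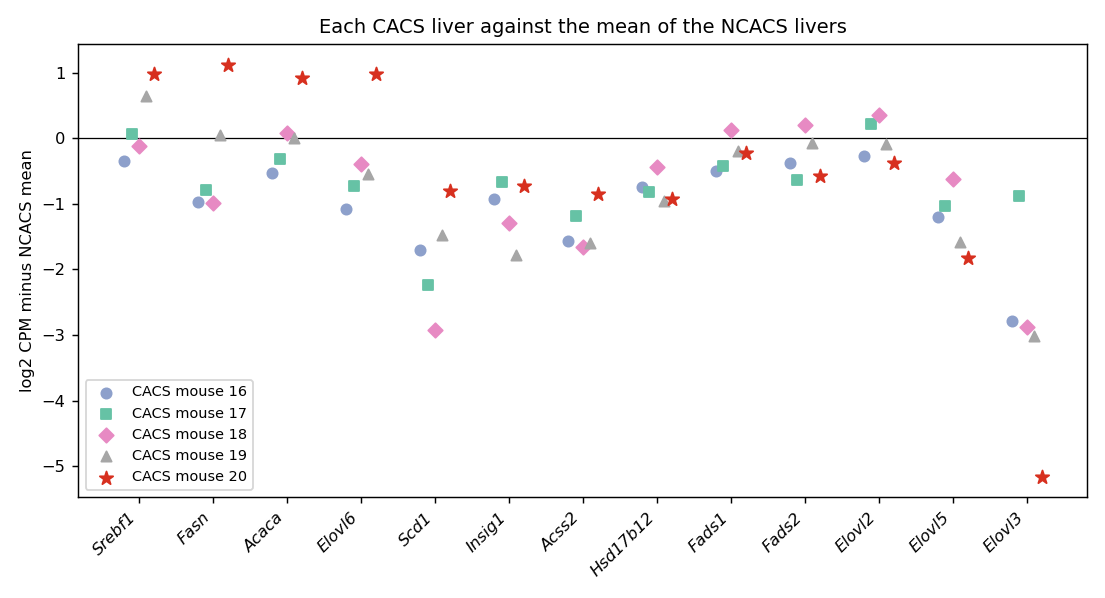
Log2 CPM of each CACS liver minus the NCACS mean (y axis, 1 symbol per mouse) for 7 of the 9 genes and for Srebf1, Fasn, Acaca, Insig1, Acss2 and Hsd17b12. Mouse 20 stands at 0.98 for Elovl6, 1.13 for Fasn and -5.16 for Elovl3. Every CACS liver is below 0 for Scd1, Elovl3 and Elovl5, and also for Insig1, Acss2 and Hsd17b12.

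Of the transcriptional regulators of these enzymes, 16 of 16 listed genes were tested, 0 were called higher and 2 lower, with 9 of 16 estimates below 0 and a median log2 fold change of -0.05. Both called genes act in the sterol-sensing step that holds or releases SREBP. Insig1, which retains SREBP in the endoplasmic reticulum and is itself an SREBP target, had a median of 168.7 CPM (160.9 to 324.0) in NCACS and 104.4 CPM (58.0 to 125.4) in CACS livers (log2 fold change -1.08, SE 0.25, adjusted p = 0.0372, edgeR's quasi-likelihood test). Scap, the escort protein of SREBP, had a median of 102.0 CPM (92.9 to 129.0) and 74.9 CPM (59.0 to 82.4), a log2 fold change of -0.54 (SE 0.12, adjusted p = 0.0341). Both groups were free of overlap for both genes, though each call held in only 2 of the 10 fits with 1 liver left out. Srebf1, which encodes the lipogenic SREBP itself, was at 342.9, 316.4, 295.0, 232.3 and 99.7 CPM in NCACS mice 11 to 15 and at 185.8, 249.1, 217.3, 370.3 and 470.0 CPM in CACS mice 16 to 20. The groups overlapped for Srebf1, with a log2 fold change of 0.21 (SE 0.33, adjusted p = 0.757).

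The partners that complete an elongation cycle were measured with 6 of 7 listed genes tested, of which 0 were called higher and 1 lower (6 of 6 estimates below 0, median -0.25). The called gene was Hsd17b12, the ketoacyl-CoA reductase that all the elongases share, at a median of 154.3 CPM (138.3 to 197.5) in NCACS and 90.2 CPM (82.0 to 117.3) in CACS livers (log2 fold change -0.77, SE 0.13, adjusted p = 0.0132, edgeR's quasi-likelihood test). The desaturases draw electrons through cytochrome b5. Of the cytochrome b5 genes and their reductase genes, 5 of 6 listed were tested, 0 called higher and 1 lower (4 of 5 below 0, median -0.15). That gene was Cyb5b, the outer mitochondrial membrane form of cytochrome b5, at a median of 465.9 CPM (416.6 to 519.3) and 280.5 CPM (224.9 to 301.8), a log2 fold change of -0.82 (SE 0.12, adjusted p = 0.00764). The estimate above 0 was that of Cyb5a, another cytochrome b5 gene, named after its values were seen. Its median was 1022 CPM (632.6 to 1161) in NCACS and 1199 CPM (1044 to 1296) in CACS livers. Cyb5a was not called (log2 fold change 0.29, SE 0.16, adjusted p = 0.326, edgeR's quasi-likelihood test). Which cytochrome b5 gene serves the desaturases was not measured here, so the Cyb5b call does not describe their electron supply.

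Among 10 of 10 genes tested that supply malonyl-CoA and NADPH, 0 were called higher and 1 lower, with 9 of 10 estimates below 0 and a median log2 fold change of -0.50. The called gene, Acss2, makes acetyl-CoA from acetate in the cytosol, and was at a median of 179.3 CPM (119.8 to 225.2) in NCACS and 58.4 CPM (54.6 to 96.4) in CACS livers (log2 fold change -1.37, SE 0.20, adjusted p = 0.00833, edgeR's quasi-likelihood test). Of 7 of 8 acyl-CoA activating genes tested, 0 were called higher and 1 lower (6 of 7 below 0, median -0.09), namely Acsl5, a long-chain acyl-CoA synthetase, at -0.82 (SE 0.14, adjusted p = 0.0137). The remaining family members, Fads3, Fads6 and Elovl7 among 6 listed, passed the filter on low counts, 0 were called, and their median was -0.26. Over all 8 lists of pathway genes, 71 of 78 were tested, 0 were called higher, 7 were called lower and 77.5% of the estimates were below 0, with a median of -0.15, beside the 1.92% of all genes called lower and the 50.6% below 0.

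**Figure D5:**
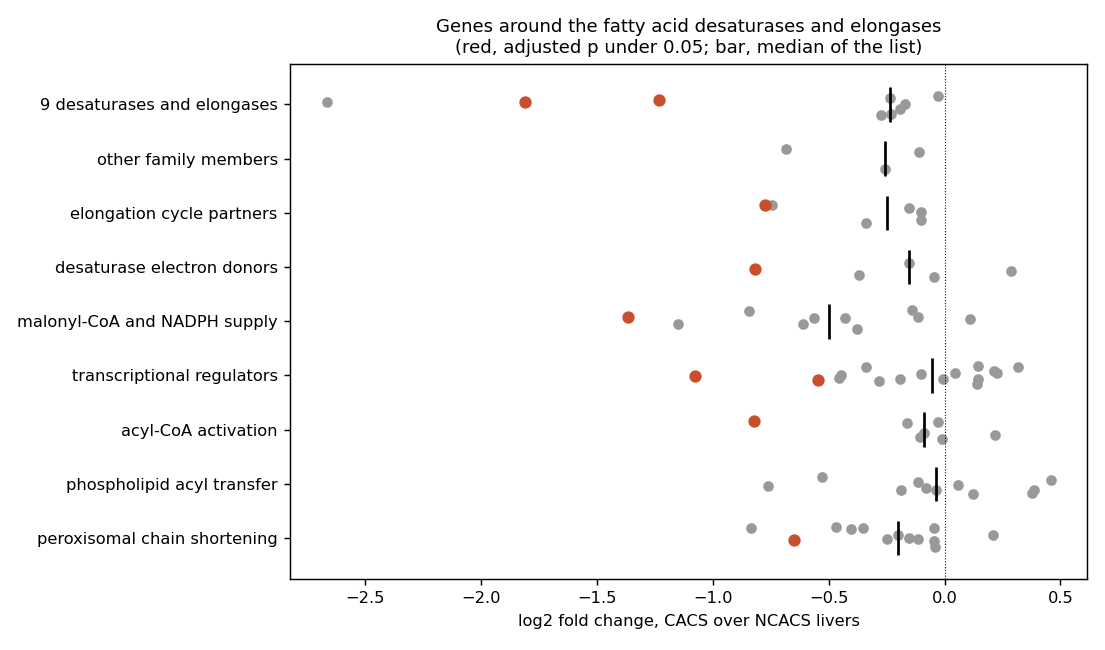
Log2 fold change, CACS over NCACS livers, of each tested gene in the 9 desaturases and elongases and in 8 lists of related genes; red points passed an adjusted p of 0.05 in edgeR's quasi-likelihood test and bars are list medians. All red points lie below 0, and the list of malonyl-CoA and NADPH supply has the lowest median, -0.50.

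The genes whose profile over the 10 livers lay nearest to a member were ranked by the root mean square difference of centred log2 CPM among 9226 genes. Nearest to Scd1, whose own spread was 1.147, were Ntrk2 (0.578), a neurotrophin receptor, Acss2 (0.592) and Dhcr7 (0.621), the last enzyme of cholesterol synthesis. Nearest to Elovl5, with a spread of 0.734, were Gm4956 (0.202), Tfpi2 (0.256), an inhibitor of coagulation proteases, and Fgd4 (0.280). Nearest to Elovl6, with a spread of 0.554, were Acaca (0.287), D230017M19Rik (0.301) and Rab3a (0.301), and nearest to Fads1, with a spread of 0.233, were Gm11789 (0.106), Prss36 (0.118) and Pyurf (0.120). Both Ntrk2 (-1.69, adjusted p = 0.0232) and Dhcr7 (-1.69, adjusted p = 0.0181) were called lower in edgeR's quasi-likelihood test, as were Tfpi2 (-1.24, adjusted p = 0.00641) and Fgd4 (-0.84, adjusted p = 0.0323), and Gm4956 was not (-1.10, adjusted p = 0.0656). The ranking is a description, and a likeness to Scd1 or Elovl5 includes the difference between the groups.

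The tissue was checked with marker lists. Hepatocyte markers summed to 74350 to 124000 CPM in NCACS and 117700 to 143100 CPM in CACS livers, with 8 of 8 tested and 1, Hnf4a, called higher (log2 fold change 0.50, adjusted p = 0.0435, edgeR's quasi-likelihood test). Adipocyte markers, which matter because fat is rich in Scd1, summed to 14.1 to 32.04 and 19.6 to 33.8 CPM, with 6 of 8 tested and 0 called. Adipoq, the adipocyte hormone, was at 0.0249 to 2.85 CPM over the 10 livers. Kupffer cell markers summed to 170.2 to 285.2 and 100.6 to 204.3 CPM, and 1 of 7, Cd5l, was called lower (-0.90, adjusted p = 0.0374). Lung epithelium markers summed to 2.02 to 6.89 and 2.76 to 9.62 CPM with Nkx2-1 under 0.1 CPM, and 1, Sftpa1, was called higher (1.27, adjusted p = 0.0323). None was called among markers of endothelium (132.5 to 180.8 and 163.8 to 213.1 CPM), stellate cells (172.0 to 245.9 and 184.8 to 288.4), cholangiocytes (33.6 to 52.8 and 20.3 to 49.7), other leukocytes (10.2 to 30.3 and 6.66 to 14.4) or erythroid cells (223.8 to 455.7 and 283.4 to 477.1). The part of the hepatocyte, adipocyte, Kupffer and lung markers in the Scd1 and Elovl5 results was not tested.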

How the data were processed

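The deposited file was a table of raw counts per gene that the authors made from stranded, poly(A)-selected single-end reads of 100 bases. The submitters' processing notes name STAR 2.4.1d, HTSeq 0.6.1, DESeq2 and GRCm38. The strand setting of the counting is not given in the sources used here. The study's batch correction was not repeated, because the libraries it joined were not analysed here. Replicates are separate mice, numbered in the labels. Livers within a group differed by a chi-square of at least 50.1 per degree of freedom, and each counted as 1 sample.

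Ensembl identifiers were matched to symbols, coordinates and exon lengths of GENCODE M21, in which 1081 of 43629 had no entry. Genes were filtered by edgeR's filterByExpr, scaled by TMM and compared between 5 CACS and 5 NCACS livers with edgeR 4.0.16 (quasi-likelihood test, R 4.3.3), Benjamini-Hochberg adjustment over 14143 genes and a threshold of 0.05. At an unadjusted p under 0.05, 3051 genes passed. Alternatives were DESeq2 1.42.0, limma-voom (limma 3.58.1), robust edgeR, other scalings and filters, and each liver left out in turn. Log2 CPM used a prior count of 2. The fit was tested on simulated data.

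The 9 genes and the lists were chosen with earlier results of these data known. The text names the 9 genes, at most 4 called genes per pathway list, Srebf1, Insig1, Fasn and Acaca, and the 3 genes nearest in profile to Scd1, Fads1, Elovl5 and Elovl6. Of the called genes in those lists and the alleles of the model, 1 each is not reported here by name. Fads3, Fads6 and Elovl7, the clock genes and the marker genes were named after their values were seen. Overlaps limit the counts: Cdc20 on the strand opposite to Elovl1 held 174 counts in all livers beside 16244 of Elovl1, Pitx3 opposite to Elovl3 held 116 beside 25048, and Mir6993 within Fads1 held 74 beside 208793.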

Additional observations from a re-analysis of the deposited data

Results flagged for a closer look

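In 66 combinations of a reported gene or ratio and a group of 5 livers, 1 liver lay apart from the others by Dixon's test in 4, where chance flags about 1 in 20 groups. NCACS mouse 15 was the lowest of its group for Fasn, at 136.6 CPM (gap over range 0.806), and for Rab3a, at 3.77 CPM (0.733), and the highest of its group for Tfpi2, at 48.4 CPM (0.822). CACS mouse 20 was the highest of its group for Dhcr7, at 94.5 CPM (0.711, just over the critical value of 0.71). Each gap over range was taken on log2 CPM and would differ on the CPM printed. The cause of the flagged values was not tested.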

How the results depend on the processing

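Scd1 and Elovl5 kept their direction and call under DESeq2, limma-voom, robust edgeR, 4 other scalings and 2 other filters, and Elovl3 passed the threshold under 3 of these. DESeq2 called 1376 genes (655 higher, 721 lower), and edgeR without a filter called 173 higher. With 1 liver left out, edgeR called 178 (without NCACS mouse 11) to 519 genes (without CACS mouse 17), 79 to 246 of them higher and 96 to 273 lower. Of the 9 desaturases and elongases it then called 0 (without NCACS mouse 11 or 14, or CACS mouse 16 or 19) to 2. It called 1, Elovl5, without NCACS mouse 13 or CACS mouse 18, and without CACS mouse 17 the 2 called were Elovl5 and Elovl3. Hsd17b12, Cyb5b, Acss2 and Acsl5 passed in 10 of 10 such fits.

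Signs turned only for results that were not called. With 1 liver left out, log2 fold changes ran from -0.34 to 0.0031 for Scd2, -0.13 to 0.059 for Elovl2, -0.0079 to 0.35 for Srebf1, -0.69 to 0.021 for Fasn, -0.18 to 0.24 for Acaca, -0.42 to 0.076 for D230017M19Rik and -0.23 to 0.15 for Rab3a (-0.012 in limma-voom), and the log2 ratio of Fads1 to Fads2 from -0.026 to 0.17. The highest Fasn values came without CACS mouse 16 or 18, and the lowest without mouse 20. The other 3 ratios kept their sign and exact p under the threshold in each of these fits. Levels per length moved for Fads1 (188.3 and 160.5 CPM per kilobase in NCACS and CACS livers) and Elovl1 (28.0 and 23.8) with the longest transcript. The cause of these shifts was not tested. No paired analysis was possible because no mouse number occurs in both groups. With 5 livers a group, the 95% interval of Elovl3 reached from -4.21 to -1.12.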

Other observations

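Genes that use or shorten the products of the desaturases and elongases were counted from the same edgeR quasi-likelihood fit. Of 12 listed genes of acyl transfer into phospholipids, 11 were tested, 0 were called, 6 estimates were below 0 and the median log2 fold change was -0.04. Of 13 listed genes of peroxisomal chain shortening, which handles very long chains, 13 were tested, 0 were called higher and 1 lower, with 12 of 13 estimates below 0 and a median of -0.20. CACS mouse 19 was the lowest of the 10 livers in 22.5% of the 71 pathway genes, beside 9.15% of all genes tested, and NCACS mouse 15 was the highest in 21.1%, beside 14.6%.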
